A study of Mus musculus with 27 samples.

Results

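The genes described are the 8 members of the mouse E2F transcription factor family, E2f1, E2f2, E2f3, E2f4, E2f5, E2f6, E2f7 and E2f8, and the 2 E-type cyclins, Ccne1 and Ccne2. They were chosen by symbol, as array probe sets annotated to that symbol alone, and make up 10 of the 19938 genes measured in this way. A single probe set represented 9 of them, and for E2f3, which had 2, the one with the higher mean over all arrays was used. RNA came from TAMH cells, an immortalised line derived from the hepatocytes of mice that carry a TGF-alpha transgene, which every culture therefore shares. Confluent cells in serum-free medium received 2 mM APAP (acetaminophen, whose ring hydroxyl group sits para to the acetamide group), 2 mM AMAP (the regioisomer with that hydroxyl group in the meta position) or control medium, and were harvested at 2, 6 or 24 h. The resulting 9 groups held 3 arrays each, 27 in all, with the numbers 30, 31 and 32 in every group. The labels do not say whether these numbers mark separate cultures, passages or days, so the p-values measure the spread between these samples, which may be technical. All cells are of 1 line, and the labels describe cells of a range of passages.

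E2F proteins bind DNA at the promoters of genes for DNA replication and cell cycle control. E2F1, E2F2 and E2F3 are activators held in check by the retinoblastoma protein RB, whereas E2F4 and E2F5 act mainly as repressors together with the pocket proteins p107 and p130. E2F6 represses without pocket proteins, in complexes of the Polycomb type, and E2F7 and E2F8 are atypical repressors that bind DNA without a DP partner and limit E2F1 activity. E-type cyclins activate the kinase CDK2 at entry into S phase, and their genes, like E2f1, E2f7 and E2f8, are known E2F targets. In mouse liver, E2F7 and E2F8 are known for their part in hepatocyte polyploidy.

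Promoter sequence is shown for 1 gene with matches to an E2F motif and 1 without, both among the genes that differed most between treatments below. RefSeq windows of 250 bases before a transcription start (build GRCm38.p6), 9 in all, were found for 7 of the 10 genes. They were searched on both strands for 4 motifs of 7 bases, with overlaps counted. Of 32851 mouse promoter windows of this length, TTCCCGC was in 3.82%, the motif TTGGCGC in 1.97%, the motif TTGCCGC in 1.36% and the motif TTCGCGC in 1.28%. At least 1 of the 4 was in 7.89% of the windows, and 0.07% held 3 or more matches. The windows of E2f7 (chr10:110745189-110745438, plus strand) and Ccne1 (chr7:38107491-38107740, minus strand) follow, 5′ to 3′ on the gene's strand, with matches on either strand in capitals.
E2f7: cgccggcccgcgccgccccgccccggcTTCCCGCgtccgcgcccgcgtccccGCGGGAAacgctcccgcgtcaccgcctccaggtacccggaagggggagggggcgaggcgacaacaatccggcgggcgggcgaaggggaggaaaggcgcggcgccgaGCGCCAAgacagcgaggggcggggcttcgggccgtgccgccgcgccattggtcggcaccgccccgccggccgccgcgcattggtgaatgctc
Ccne1: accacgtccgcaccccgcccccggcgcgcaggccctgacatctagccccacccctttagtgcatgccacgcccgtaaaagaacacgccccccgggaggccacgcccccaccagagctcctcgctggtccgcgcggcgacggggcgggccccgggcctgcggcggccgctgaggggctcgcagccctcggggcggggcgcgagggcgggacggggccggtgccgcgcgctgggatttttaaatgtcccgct
The E2f7 window held 3 matches: TTCCCGC on the strand of the gene, beginning 223 bases before the start, TTCCCGC on the opposite strand at 198 bases, and TTGGCGC on the opposite strand at 92 bases. The Ccne1 window held none of these letters, and E2f3 and E2f8 held 1 match each in a window. Windows of E2f1, E2f2 and E2f6 held none. Those of E2f1 and E2f8 lie inside the gene, 466 and 477 bases past its outermost annotated start, and are not printed. A further window of E2f2 and one of E2f3 also lie inside the gene, 8508 and 1673 bases past that start. The E2f6 window belongs to a start 56 bases past the outermost one. A match describes letters only; no binding was measured.

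Values are the authors' log2 expression values, 1 per probe set and array, and a difference of 1 is a factor of 2. All differences, standard errors and adjusted p-values come from 1 limma fit to the 27 arrays, with Benjamini-Hochberg adjustment over all 19938 genes within each comparison. A gene passed the test where the adjusted p was under 0.05, and intervals are 95% intervals. Array medians lay between 6.92 and 7.07, and arrays of a group correlated with each other at 0.992 to 0.997 across genes. The median standard error of a difference over all genes was 0.10, so 3 arrays a group limit the precision. The hepatocyte marker list was at the median percentile 94.6 of all genes (8 genes, from Cps1 at percentile 60.3 to Alb at percentile 99.98). The median was 70.6 for biliary and progenitor markers (Epcam 31.5 to Krt7 89.9) and 50.5 for fibroblast and stellate markers (Lum 2.4 to Dcn 98.5). It was 25.4 for endothelial markers (Tek 22.3 to Stab2 34.3) and 23.4 for macrophage and leukocyte markers (Adgre1 12.1 to Cd68 62.3). The range of the hepatocyte list thus overlapped those of all but the endothelial list.

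**Figure D1:**
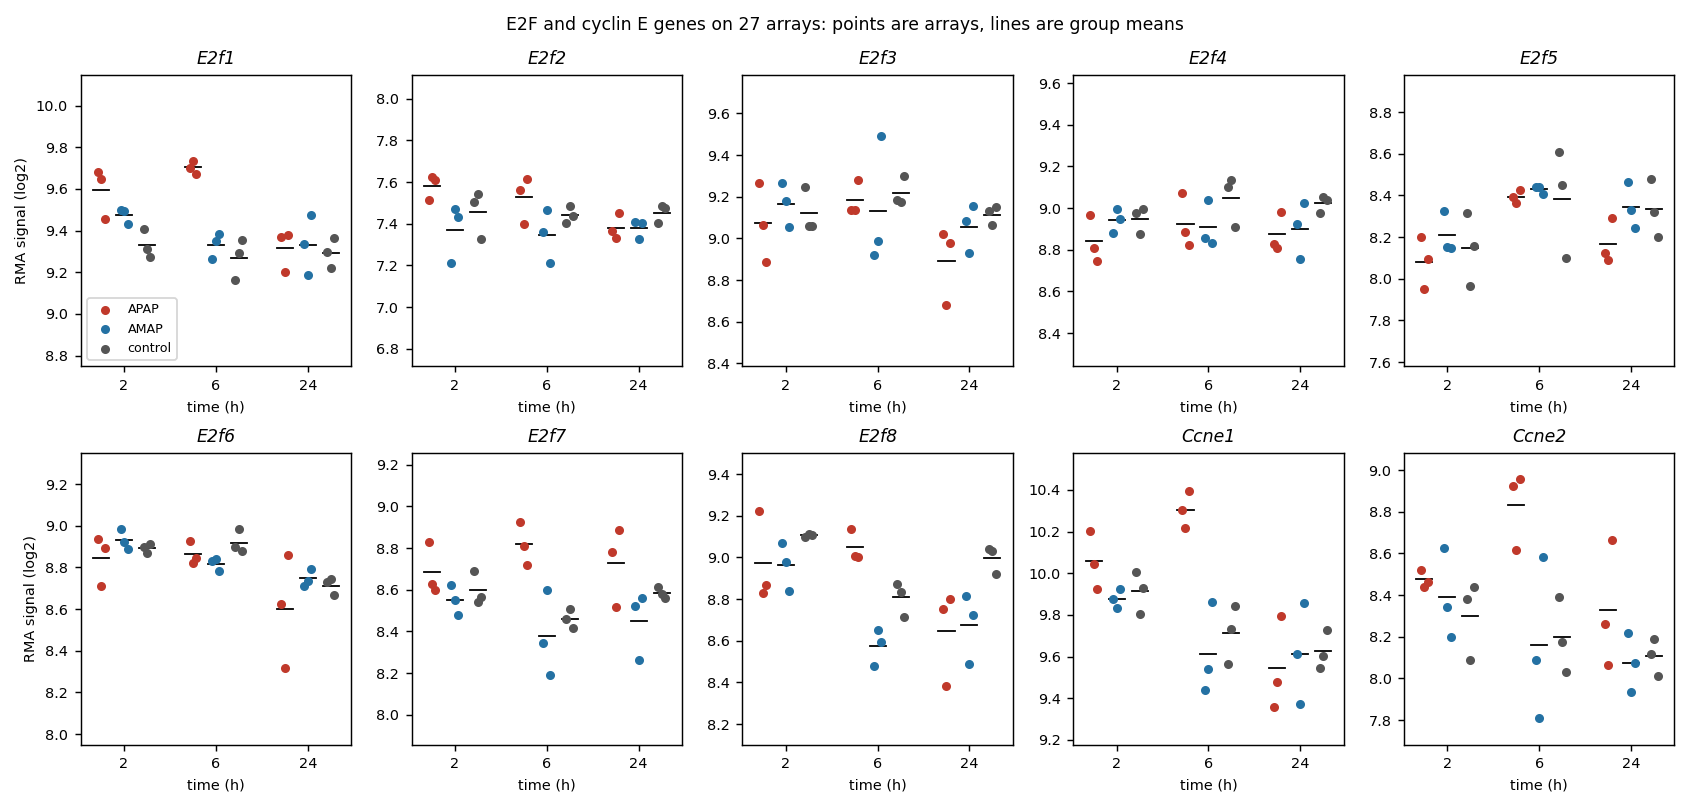
Log2 RMA signal (vertical axis, own range for each gene, all spanning the same number of log2 units) of each of the 10 genes at 2, 6 and 24 h; points are single arrays and lines are means of 3 arrays, for APAP (red), AMAP (blue) and control (grey). At 6 h the 3 APAP arrays lie above all AMAP and control arrays for E2f1, E2f7, E2f8, Ccne1 and Ccne2. Of all genes, 7.71% had them above all control arrays and 5.09% above all AMAP arrays. The share with both was not counted.

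The clearest differences were at 6 h. E2f1, Ccne1 and Ccne2 rose in APAP cultures over control, by 0.43, 0.59 and 0.63 on the log2 scale (35.0%, 50.9% and 55.1%). In that comparison 1.05% of all genes passed higher. No gene of the 10 passed for AMAP against control, where only 0.456% of all genes passed. Over AMAP cultures of the same time, APAP cultures were higher for E2f1, Ccne1, Ccne2, E2f7 and E2f8, where 0.476% of all genes passed higher. At 24 h none of these increases passed, and E2f8 was the only one of the 10 to pass, lower in APAP cultures than in control, in a comparison in which 9.33% of all genes passed and 5.97% passed lower.

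Among the activators, E2f1, known to drive both cell cycle entry and apoptosis, had log2 values of 9.70, 9.73 and 9.67 in APAP cultures at 6 h (arrays 30, 31 and 32), 9.27, 9.35 and 9.38 in AMAP cultures, and 9.16, 9.29 and 9.36 in control cultures. All 3 APAP arrays were above all arrays of the other groups at that time, while AMAP and control arrays overlapped. The increase over control was 0.43 ± 0.08 (SE, n = 3 a group, interval 0.27 to 0.60, limma adjusted p = 0.00284). Against AMAP it was 0.37 ± 0.08 (adjusted p = 0.0228). The increase over control did not pass without number 30 in every group (adjusted p = 0.238) or number 31 (0.0726). AMAP against control gave 0.06, with an interval of -0.10 to 0.23.

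At 2 h the E2f1 values were 9.68, 9.65 and 9.46 in APAP cultures, 9.50, 9.49 and 9.43 in AMAP cultures, and 9.41, 9.31 and 9.28 in control cultures. APAP arrays and AMAP arrays were all above the 3 control arrays, and overlapped with each other. Neither difference passed: APAP against control was 0.27 (interval 0.10 to 0.43, limma adjusted p = 0.162) and AMAP against control 0.14 (interval -0.02 to 0.31, adjusted p = 0.801). At 24 h the values were 9.37, 9.20 and 9.38 in APAP cultures, 9.33, 9.19 and 9.48 in AMAP cultures, and 9.30, 9.22 and 9.36 in control cultures. The groups overlapped, and APAP against control was 0.02 (interval -0.14 to 0.19).

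E2f2, an activator with a role in proliferating cells, lay between 7.21 and 7.62 on all 27 arrays. In APAP cultures it was 7.51, 7.62 and 7.61 at 2 h, against 7.21, 7.47 and 7.43 in AMAP cultures. These 2 groups did not overlap, but the difference of 0.21 did not pass (interval 0.04 to 0.38, limma adjusted p = 0.419). At 6 h APAP against AMAP was 0.18 (interval 0.01 to 0.35, adjusted p = 0.609) and APAP against control 0.08 (interval -0.08 to 0.25), with overlapping arrays.

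E2f3, the third activator, had group means between 8.89 and 9.22. Its lowest group was APAP at 24 h, with 9.02, 8.68 and 8.98, against 9.13, 9.06 and 9.15 in control cultures. The 3 APAP arrays were below the 3 control arrays, array 31 by the most, and the difference of -0.22 did not pass (interval -0.47 to 0.02, limma adjusted p = 0.283). The second E2f3 probe set gave -0.21 (adjusted p = 0.319) in the same comparison. In AMAP cultures at 6 h, 1 array stood at 9.49, above every other E2f3 value, and the other 2 stood at 8.92 and 8.99.

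The pocket-protein repressors and E2f6 passed in no comparison. E2f4 had group means between 8.84 and 9.05, and its differences between compounds and control ran from -0.15 to -0.01. E2f5 had group means between 8.08 and 8.43 and differences against control from -0.17 to 0.06. E2f6, the Polycomb-linked repressor, had group means between 8.60 and 8.93. Its lowest value was 8.32, on APAP array 31 at 24 h, and the other APAP arrays of that time were at 8.62 and 8.86, against 8.73, 8.74 and 8.67 in control cultures. The widest 95% intervals for these 3 genes against control reached -0.39 and 0.28, so changes of that size remain within the measurement.

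E2f7, an atypical repressor, had 8.92, 8.81 and 8.72 in APAP cultures at 6 h, 8.34, 8.60 and 8.19 in AMAP cultures, and 8.46, 8.51 and 8.41 in control cultures. Every APAP array was above every AMAP and control array. Against AMAP it was higher by 0.44 ± 0.10 (interval 0.23 to 0.65, limma adjusted p = 0.0355). This difference did not pass without number 30 (adjusted p = 0.9996) or 32 (0.248) in every group, and passed without number 31 (0.0418). It kept 8 of 16 other settings past the test. Against control the difference was 0.36 ± 0.10 (interval 0.15 to 0.57), with a limma adjusted p of 0.0616. With the replicate numbers as a block, which the pairing check allowed for this comparison, it passed with an adjusted p of 0.043. It also passed under 3 other settings (adjusted p between 0.0297 and 0.0453) and not under the rest. At 24 h E2f7 had 8.78, 8.52 and 8.89 in APAP cultures, 8.52, 8.26 and 8.56 in AMAP cultures, and 8.61, 8.58 and 8.56 in control cultures. The groups overlapped through APAP array 31, and APAP against AMAP was 0.28 (interval 0.07 to 0.49, adjusted p = 0.122). At 2 h the difference between APAP and control was 0.09 (interval -0.12 to 0.30).

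E2f8, the other atypical repressor, stood at 9.14, 9.01 and 9.00 in APAP cultures at 6 h, 8.48, 8.65 and 8.59 in AMAP cultures, and 8.87, 8.84 and 8.71 in control cultures. The 3 groups did not overlap, with APAP highest and AMAP lowest. Only the difference between the compounds passed, 0.47 ± 0.11 for APAP against AMAP (interval 0.25 to 0.69, limma adjusted p = 0.0316). The differences against control were 0.24 for APAP (interval 0.02 to 0.46, adjusted p = 0.336) and -0.23 for AMAP (interval -0.45 to -0.01, adjusted p = 0.494).

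At 24 h E2f8 had 8.75, 8.38 and 8.80 in APAP cultures, 8.82, 8.49 and 8.72 in AMAP cultures, and 9.04, 9.03 and 8.92 in control cultures. All arrays of both compounds were below all control arrays, and the compounds overlapped. In APAP cultures E2f8 fell by 0.35 ± 0.11 on the log2 scale, a change of -21.6% (limma adjusted p = 0.0375). The AMAP difference was -0.32 (interval -0.54 to -0.10), with an adjusted p of 0.186, and APAP against AMAP was -0.03, with an interval of -0.25 to 0.19. The APAP decrease did not pass without APAP array 31, where it was -0.22 (adjusted p = 0.271), or without any 1 of the control arrays (adjusted p between 0.0559 and 0.116), nor with any 1 replicate number left out of every group. At 2 h E2f8 had 9.22, 8.83 and 8.87 in APAP cultures, 9.07, 8.98 and 8.84 in AMAP cultures, and 9.10, 9.11 and 9.11 in control cultures, with no difference past the test.

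Ccne1, which encodes cyclin E1, had 10.30, 10.22 and 10.40 in APAP cultures at 6 h, 9.44, 9.54 and 9.86 in AMAP cultures, and 9.56, 9.73 and 9.84 in control cultures. The lowest APAP array was above the highest array of the other groups, and AMAP and control arrays overlapped. Relative to control it rose by 0.59 ± 0.12 (interval 0.34 to 0.84, limma adjusted p = 0.00632), and relative to AMAP by 0.69 ± 0.12 (interval 0.44 to 0.94, adjusted p = 0.00352). Both calls held without any single array of the groups compared. Without number 30 or 31 in every group neither passed (adjusted p between 0.0884 and 0.298). AMAP against control was -0.10 (interval -0.35 to 0.15).

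Ccne1 values at 2 h were 10.20, 10.04 and 9.92 in APAP cultures, 9.87, 9.84 and 9.93 in AMAP cultures, and 10.01, 9.81 and 9.93 in control cultures. The groups overlapped, and APAP against control was 0.14 (interval -0.11 to 0.39). At 24 h they were 9.36, 9.48 and 9.79 in APAP cultures, 9.61, 9.37 and 9.86 in AMAP cultures, and 9.55, 9.60 and 9.73 in control cultures, again overlapping, with APAP against control at -0.08 (interval -0.33 to 0.17).

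Ccne2, which encodes cyclin E2, varied more between arrays. At 6 h it had 8.92, 8.62 and 8.96 in APAP cultures, 8.09, 7.81 and 8.58 in AMAP cultures, and 8.39, 8.17 and 8.03 in control cultures. APAP arrays were above all others, although APAP array 31 and AMAP array 32 were separated by little. The increase over control was 0.63 ± 0.16 (interval 0.31 to 0.96, limma adjusted p = 0.0277) and that over AMAP 0.67 ± 0.16 (interval 0.35 to 1.00, adjusted p = 0.0409). Over control it did not pass without APAP array 30 or 32 or without control array 31 or 32 (adjusted p between 0.0961 and 0.129). Nor did it pass over control with any 1 number left out of every group (limma adjusted p between 0.0703 and 0.251). Over AMAP it did not pass without number 30 (0.944) or 31 (0.297), and passed without number 32 (0.0234). Over AMAP it did not pass with arrays centred on their medians, quantile normalization or the trend and robust prior (adjusted p between 0.0519 and 0.057).

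Ccne2 at 2 h had 8.52, 8.44 and 8.46 in APAP cultures, 8.63, 8.34 and 8.20 in AMAP cultures, and 8.38, 8.09 and 8.44 in control cultures. The lowest APAP array was only just above the highest control array, and the difference of 0.17 did not pass (interval -0.15 to 0.50, limma adjusted p = 0.830). At 24 h it had 8.26, 8.06 and 8.66 in APAP cultures, 8.22, 7.93 and 8.08 in AMAP cultures, and 8.12, 8.19 and 8.01 in control cultures. The groups overlapped, with APAP array 32 the highest, and APAP against control was 0.22 (interval -0.10 to 0.55).

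**Figure D2:**
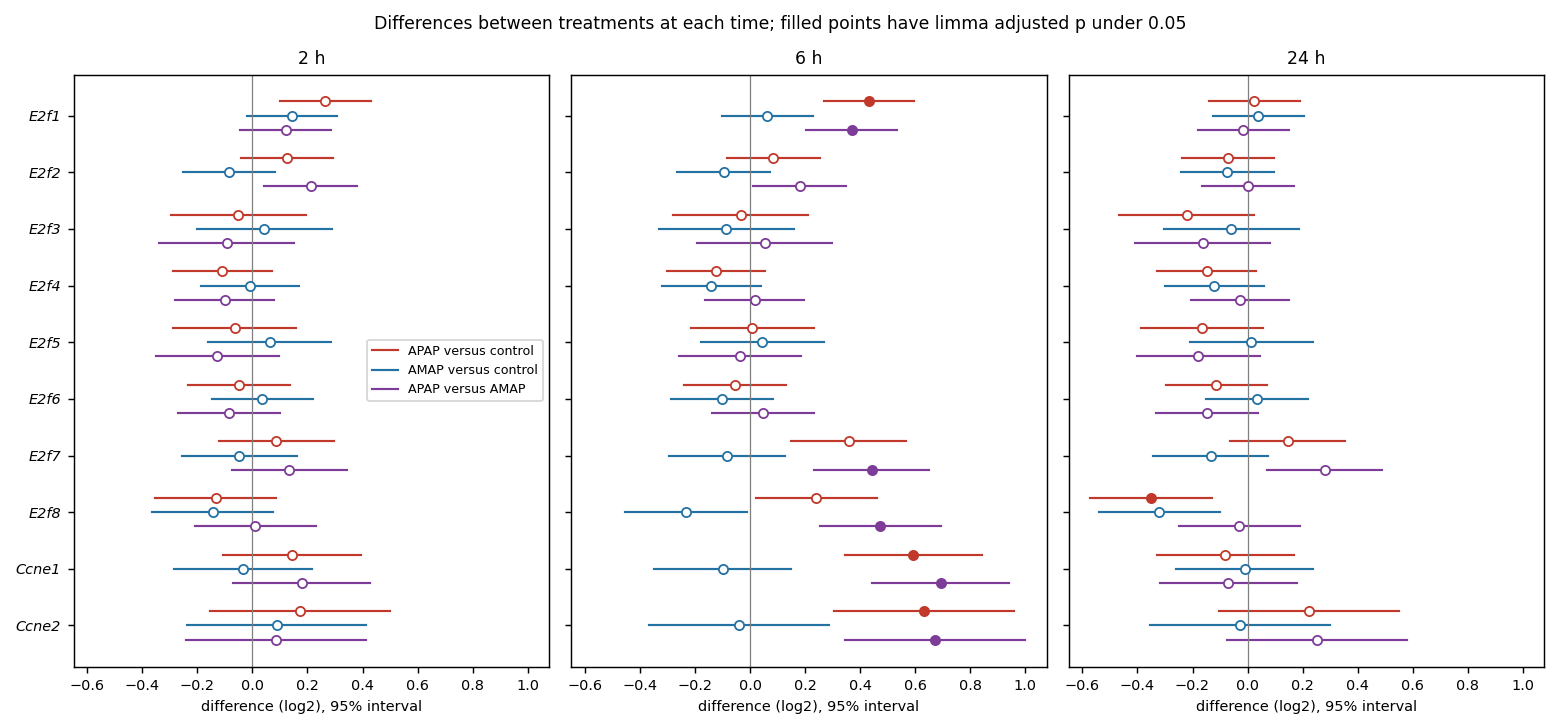
Differences in log2 signal (horizontal axis) with 95% intervals for the 10 genes at 2, 6 and 24 h, as APAP versus control (red), AMAP versus control (blue) and APAP versus AMAP (purple); filled points had a limma adjusted p under 0.05. The 9 filled points are 8 increases at 6 h, between 0.37 and 0.69, and the decrease of E2f8 at 24 h.

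Counted over the 10 genes, 3 passed higher for APAP against control at 6 h, where 2.50% of all genes passed in either direction and 1.05% passed higher. Their median difference was 0.16, against 0.00 for all genes, and 5 of the 10 had all APAP arrays above all control arrays, a pattern seen for 7.71% of all genes. For APAP against AMAP at 6 h, 5 of the 10 passed, all higher, where 0.707% of all genes passed and 0.476% passed higher. The median was 0.28, against -0.01 for all genes, and the same 5 had all APAP arrays above all AMAP arrays, a pattern of 5.09% of genes. Both comparisons share the APAP arrays. For AMAP against control at 6 h, none passed in limma, where 0.456% of all genes did, and 1 had an unadjusted p under 0.05. The median in that comparison was -0.09, against 0.01 for all genes, and 2 of the 10 differences were above 0. With the replicate block, 200 genes in place of 91 passed over the array.

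At 24 h 1 of the 10 passed for APAP against control, where 9.33% of all genes passed and 5.97% passed lower, so this share of the 10 is near that of all genes. In that comparison 2 of the 10, E2f3 and E2f8, had all APAP arrays below all control arrays, as 13.7% of all genes did, and the median was -0.10, against 0.02 for all genes. None passed for AMAP against control at 24 h (0.727% of all genes) or APAP against AMAP at 24 h (4.65%), and 1 of the 10 had an unadjusted p under 0.05 in each. At 2 h none passed for APAP against control (0.682% of all genes), AMAP against control (0.181%) or APAP against AMAP (0.261%); the numbers with an unadjusted p under 0.05 were 1, 0 and 1. With the replicate block, 214 genes in place of 136 passed for APAP against control at 2 h, none of them among the 10.

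In control cultures none of the 10 passed between times in limma (unadjusted p under 0.05 for 2, 1 and 1 of them), where 0.707% of all genes passed for 6 h against 2 h, 0.0150% for 24 h against 6 h and 1.14% for 24 h against 2 h. The control values of E2f8 averaged 9.11 at 2 h, 8.81 at 6 h and 9.00 at 24 h, with 6 h against 2 h at -0.30 (interval -0.52 to -0.08, limma adjusted p = 0.279). For Ccne1 the control means were 9.91 at 2 h, 9.71 at 6 h and 9.63 at 24 h, with 24 h against 2 h at -0.29 (interval -0.54 to -0.04, adjusted p = 0.266). E2f1 control means stayed between 9.27 and 9.33.

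Whether the effect of APAP itself differed between times was tested in the same limma fit. For 24 h minus 6 h the difference of effects was -0.67 for Ccne1 (interval -1.03 to -0.32), -0.59 for E2f8 (interval -0.90 to -0.28) and -0.41 for E2f1 (interval -0.64 to -0.18). The median over the 10 genes was -0.20, against 0.01 for all genes. None of the 10 passed, the smallest limma adjusted p being 0.267, where 0.0100% of all genes passed. An unadjusted p under 0.05 was found for 3 of the 10. For 6 h minus 2 h the difference of effects was 0.45 for Ccne1 (interval 0.10 to 0.80) and 0.17 for E2f1 (interval -0.07 to 0.40). No gene of the array passed (0%), while 680 genes, 2 of the 10 among them, had an unadjusted p under 0.05. For 24 h minus 2 h none of the 10 passed and 1 had an unadjusted p under 0.05, against 0.356% of all genes past the test. For AMAP none of the 10 passed between 6 and 2 h (0.00502% of all genes), 24 and 6 h (0%) or 24 and 2 h (0%). An unadjusted p under 0.05 was found for 823, 691 and 937 of all genes in these comparisons and for 0 of the 10.

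Across the 9 groups, the order of the means was led by APAP at 6 h for E2f1 (9.70 ± 0.03, SD, n = 3), E2f7 (8.82 ± 0.10), Ccne1 (10.31 ± 0.09) and Ccne2 (8.83 ± 0.19). APAP at 2 h came next for E2f1 (9.60 ± 0.12), Ccne1 (10.06 ± 0.14) and Ccne2 (8.48 ± 0.04), and APAP at 24 h for E2f7 (8.73 ± 0.19). The gap between these neighbours exceeded the larger of the 2 SDs for Ccne1 (0.25) and Ccne2 (0.36), but not for E2f1 (0.11) or E2f7 (0.09). Below the second place, neighbouring E2f1 groups never differed by more than the larger SD. For E2f8 the highest mean was control at 2 h (9.11 ± 0.01) and the lowest AMAP at 6 h (8.58 ± 0.09). The group means spanned 0.76 for Ccne1 and 0.75 for Ccne2, wider than for 96.4% of all genes, 0.53 for E2f8, 0.44 for E2f7 and 0.43 for E2f1, and 0.21 for E2f4.

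As a description over the 9 group means, which share control groups and the same 27 arrays, E2f1 followed Ccne2 (Pearson r = 0.905) and Ccne1 (r = 0.902), and Ccne1 followed Ccne2 (r = 0.893). E2f8 followed Ccne1 at r = 0.719 and E2f1 at r = 0.471. Among about 2480 genes with a highest group mean of at least 6 and a range of at least 0.5, the profile most like that of E2f1, besides the cyclins, was Trim13 (r = 0.902). For Ccne1 the 3 nearest profiles were Cdc6, which loads the replicative helicase (r = 0.922), Psmc3ip (r = 0.914) and Lrr1 (r = 0.910). For Ccne2 they were Siva1 (r = 0.955), Lrr1 (r = 0.953) and Trim13 (r = 0.918). Those of E2f7 were Prr32 (r = 0.918), the p53 target Zmat3 (r = 0.899) and Zfp750 (r = 0.891). Those of E2f8 were Dscc1, a cohesion factor of the replication fork (r = 0.887), and the replication factors Mcm6 (r = 0.861) and Mcm10 (r = 0.853).

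Genes around the E2F proteins were described in 8 lists of partners, regulators and targets, with 87 measured genes. For APAP against control at 6 h, 5 of the 87 rose and none fell, where 210 of all 19938 genes (1.05%) passed higher and 288 passed lower. These were Ccnd2, a D-type cyclin that acts upstream of RB (0.64 ± 0.15, limma adjusted p = 0.0145), the histone mRNA binding protein Slbp (0.38 ± 0.07, adjusted p = 0.00307), and the death genes Pmaip1 (0.74 ± 0.10, adjusted p = 9.58e-05), Apaf1 (0.47 ± 0.11) and Bbc3 (0.43 ± 0.08). Pmaip1 and Bbc3 encode BH3-only proteins and Apaf1 the core of the apoptosome, and all 3 are also known targets of p53. The list of death genes linked to E2F had 3 of 6 measured genes past the test and a median of 0.36, against 0.00 for all genes. Among 21 targets in DNA synthesis, only Slbp passed, and the median was 0.10.

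Against AMAP at 6 h, 5 of the 87 were higher in APAP cultures and none lower, where 95 of all 19938 genes (0.476%) passed higher and 46 passed lower. Cdk2, the kinase partner of cyclin E, was higher by 0.36 ± 0.08 (limma adjusted p = 0.0295) and Prim1, the DNA primase subunit, by 0.44 ± 0.09 (adjusted p = 0.0129). The others were Pmaip1 (0.61), Apaf1 (0.46) and Bbc3 (0.39). The 21 targets in DNA synthesis had a median of 0.21 and the 13 targets in cell cycle control and repair a median of 0.23, against -0.01 for all genes, although 1 and 0 of them passed. Relative to control at 6 h, the medians of these lists were 0.10 and 0.09 in APAP cultures (0.00 for all genes). In AMAP cultures they were -0.11 and -0.11 (0.01 for all genes). In AMAP cultures at 6 h, Ccnd1, the main D-type cyclin of hepatocytes, fell by 0.46 ± 0.10 relative to control (adjusted p = 0.0288), and no other gene of the 87 passed, where 91 of all genes did.

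At 24 h in APAP cultures, 13 of the 87 fell and 4 rose relative to control, where 1190 of all 19938 genes (5.97%) passed lower and 670 passed higher. The replication genes Gins1 (-0.66 ± 0.13, limma adjusted p = 0.00209), Tk1 (-0.54 ± 0.11) and Mcm6 (-0.38 ± 0.09) fell, while Slbp, named here after its value was seen, rose by 0.28. Uhrf1, which maintains DNA methylation (-0.58 ± 0.11, adjusted p = 0.00161), Ezh2 (-0.28) and Mybl2 (-0.28) fell among the 13 targets in cell cycle control and repair, whose median was -0.24, against 0.02 for all genes. Among the G1 genes and regulators of cyclin E, Ccna2 (-0.49), Cdk4 (-0.26), Cks1b (-0.57), Cul3 (-0.25) and the CDK inhibitor Cdkn2c (-0.36) fell. The E2F6 partners Cbx3 (-0.30) and Wdr5 (-0.30) fell as well. Rb1, which encodes RB, rose by 0.54 ± 0.12 (adjusted p = 0.00498), as did Pmaip1 (0.76) and Apaf1 (0.56).

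In AMAP cultures at 24 h, Ccnd1 fell by 0.53 ± 0.10 relative to control (limma adjusted p = 0.00747) and no other gene of the 87 passed, where 145 of all genes did. APAP cultures were higher than AMAP cultures of that time for 5 of the 87, the death genes Pmaip1 (0.76), Apaf1 (0.69) and Bbc3 (0.46), Ccnd1 (0.36) and Cdc34 (0.39), and lower for 4, Cdkn2c (-0.45), Uhrf1 (-0.41), Cul3 (-0.27) and Cdk4 (-0.21); over all genes, 373 passed higher and 555 lower. At 2 h, Slbp rose in APAP cultures (0.37 ± 0.07, adjusted p = 0.00747) and in AMAP cultures (0.35 ± 0.07, adjusted p = 0.0314) relative to control. Pmaip1 rose (0.44) and Cdkn2c fell (-0.53) in APAP cultures at that time, where 136 of all genes passed.

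**Figure D3:**
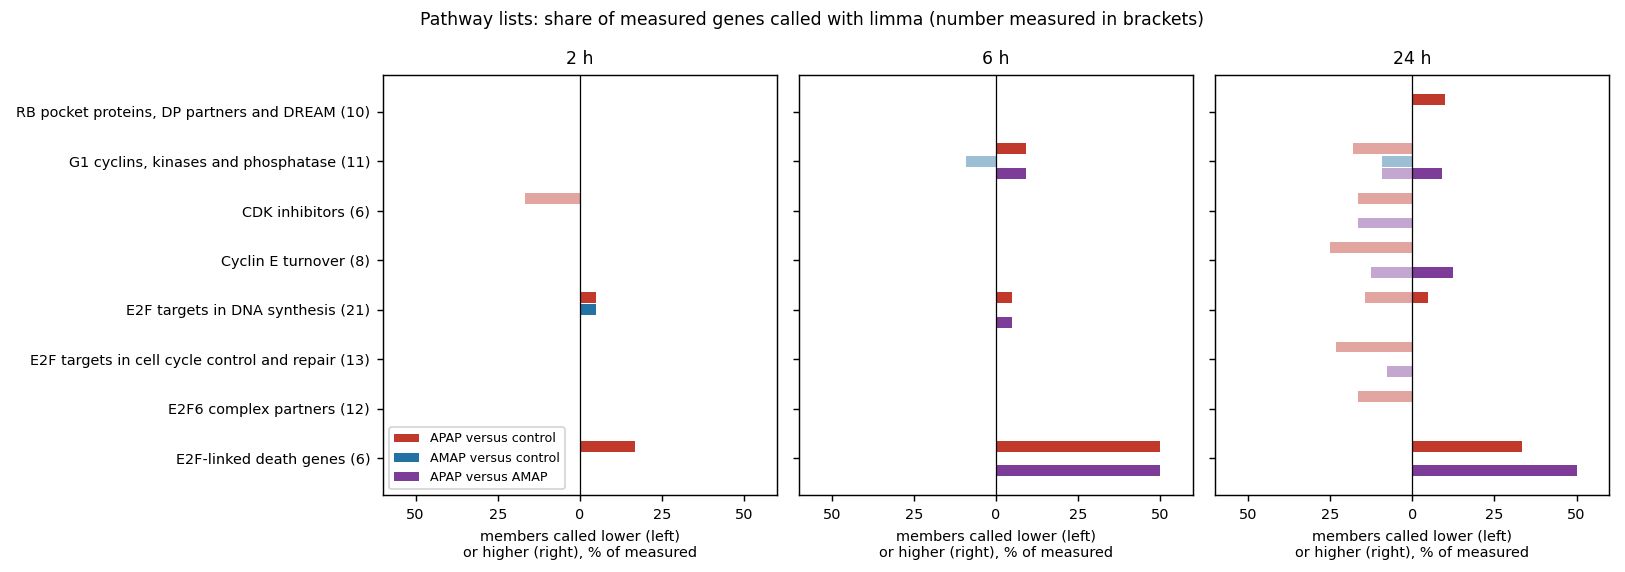
Share of measured genes in each of 8 pathway lists (number measured in brackets) that passed the limma test at 2, 6 and 24 h, drawn to the right in full colour where higher and to the left in pale colour where lower, for APAP versus control (red), AMAP versus control (blue) and APAP versus AMAP (purple). The death genes have 3 of 6 higher at 6 h in both APAP comparisons, and bars on the left are most frequent for APAP versus control at 24 h, with 13 of 87 genes lower.

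Lists of markers of other cell types differed in mean level between some of the groups. The 5 biliary and progenitor markers had a mean log2 level per array of 8.28 to 8.44 in APAP cultures and 8.06 to 8.42 in AMAP cultures at 6 h, against 8.55 to 8.59 in control cultures. At 24 h they were at 7.79 to 8.07 in APAP cultures and 7.65 to 8.14 in AMAP cultures, against 8.31 to 8.44 in control cultures, and Sox9 passed the limma test for APAP against control (-0.35, adjusted p = 0.0441). The 8 fibroblast and stellate markers were at 7.25 to 7.36 in APAP cultures and 7.24 to 7.42 in AMAP cultures at 6 h, against 7.31 to 7.42 in control cultures. At 24 h they were at 7.29 to 7.38 in APAP cultures and 7.26 to 7.27 in AMAP cultures, below all control cultures at 7.40 to 7.46. Among them, Pdgfra passed for APAP against control at 6 h (-0.44) and 24 h (-0.41). Thus 1 of 5 biliary and progenitor markers and 1 of 8 fibroblast and stellate markers passed at 24 h, where 9.33% of all genes did. At 6 h 2.50% of all genes passed. Single markers are not reported here for AMAP against control. None of the 8 hepatocyte markers passed in the comparisons of APAP with control at 6 or 24 h or of APAP with AMAP at 6 h. The part of these shifts in the values of the E2F and cyclin E genes was not tested. All cells were of 1 line, and whether the cultures held separate cell types was not tested. In bulk RNA, fewer cells with a marker and less of its RNA per cell cannot be told apart.

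**Figure D4:**
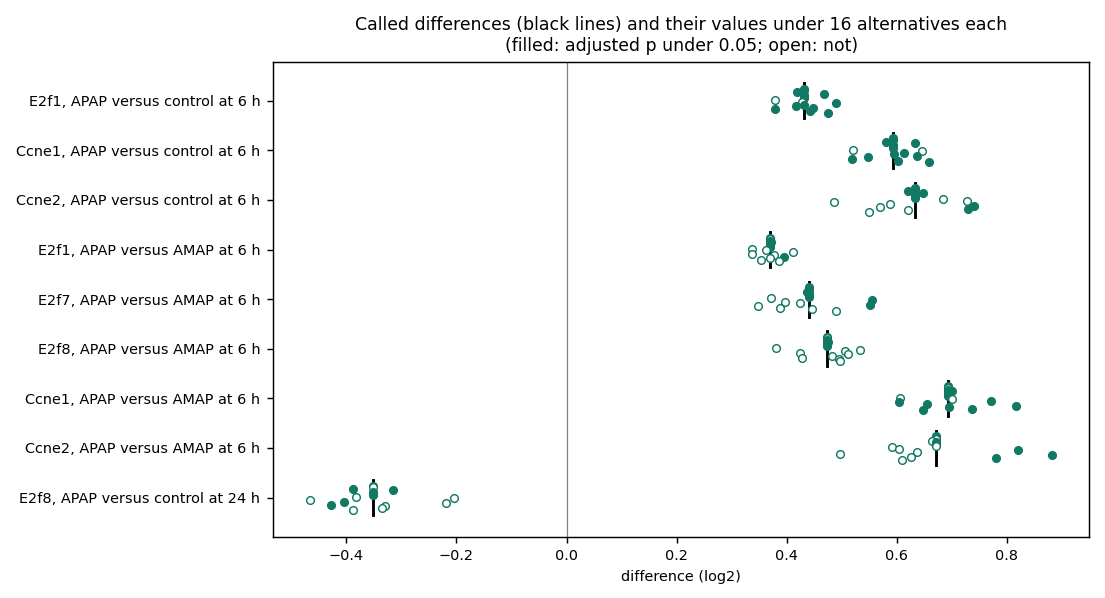
The 9 differences of the E2F and cyclin E genes that passed the limma test (black lines, log2 scale on the horizontal axis) and their values under 16 other settings each (points, filled where the adjusted p was under 0.05). No value changes sign, which leaving out arrays could not bring about because the arrays compared do not overlap. Ccne1 and E2f1 against control keep 14 of 16 settings past the test, and E2f8 and Ccne2 against AMAP keep 6 of 16.

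For the 2 regioisomers at the matched dose, the comparison can be stated gene by gene. At 6 h they differed for E2f1, E2f7, E2f8, Ccne1 and Ccne2, by 0.37 to 0.69 on the log2 scale. With each of the 6 arrays left out in turn, the call was lost 5 times for E2f1 and E2f7, 6 times for E2f8, 4 times for Ccne2 and 0 times for Ccne1, and all 5 were lost when only these 6 arrays were fitted (adjusted p between 0.0691 and 0.317). For E2f3, E2f4, E2f5 and E2f6 at 6 h the differences were between -0.04 and 0.05. Their intervals reached -0.26 and 0.30, so differences within these bounds remain possible. The second E2f3 probe set gave 0.16 in this comparison (limma adjusted p = 0.900). At 2 and 24 h no difference between the compounds passed, and the intervals reached 0.43 for Ccne1 at 2 h and 0.58 for Ccne2 at 24 h.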

How the data were processed

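Total RNA of TAMH cells was hybridised to Affymetrix Mouse Gene 1.0 ST arrays, per the labels' protocols. The deposited values are log2 expression values that the authors made with RMA in Affymetrix Expression Console 1.1, per the submitters' processing notes; that they are on a log2 scale was judged from their lowest and highest values. Detection calls and scanner files were not analysed here, and the genome build is not given in the sources used here. Of 35557 probe sets, 21789 have a single gene symbol in the platform annotation, 1621 several and 12147 none. For 999 genes with more than 1 probe set the one with the highest mean was kept, leaving 19938 genes; no filter on dim genes and no further normalization was applied.

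A mean for each of the 9 groups was fitted with limma 3.58.1 in R 4.3.3 (lmFit, eBayes; 18 residual and 7.3 prior degrees of freedom), two-sided, with Benjamini-Hochberg adjustment within a comparison and a threshold of 0.05. Samples of the same number deviated together in 5 of 9 treatment comparisons (lowest correlation over 0.1), so the replicate block was also fitted. On simulated data for APAP against control at 6 h (19938 genes, 50 changed at each size), the test found 14% of changes of 0.25, 74% of 0.5, 98% of 1 and 100% of 2 on the log2 scale, with 9 false calls.

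The members and the lists were chosen with earlier results of these data known. Named genes are all 10 members, up to 3 genes per list and comparison with the smallest p among those that passed, and the 3 profiles nearest to each member that passed. Of 132 list entries 121 were analysed, and the others are not reported here. Promoter windows are RefSeq's (GRCm38.p6), and the motifs of 7 bases were chosen after a longer form had given few matches. Alternatives were the replicate block, only the arrays compared, arrays centred on their medians, quantile normalization, a limit on dim genes, the mean of a gene's probe sets, a trend and robust prior, and leaving out each replicate number. Leaving out single arrays was added after seeing the data.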

Additional observations from a re-analysis of the deposited data

Results flagged for a closer look

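E2f8 was flagged because its APAP arrays lay on opposite sides of the control arrays at different times. All 3 APAP arrays were above all 3 control arrays at 6 h, and all 3 were below them at 24 h. Of all genes, 7.71% had all APAP arrays above at 6 h and 13.7% had them all below at 24 h. The share of genes with both was not counted, so whether the pattern is unusual is not known. The APAP effect at 24 h minus that at 6 h was -0.59 on the log2 scale (limma, 27 arrays, adjusted p = 0.267), so the difference between the times did not pass the test. In these same comparisons E2f8 averaged 9.05 ± 0.08 in APAP cultures and 8.81 ± 0.08 in control cultures at 6 h, and 8.65 ± 0.23 in APAP cultures and 9.00 ± 0.07 in control cultures at 24 h (SD, n = 3 each).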

How the results depend on the processing

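Of the 18 counts of E2F and cyclin E genes past the test, 14 were the same under all 10 alternative settings. All 14 were counts of 0, and each count above 0 fell to 0 under at least 1 setting. None of the 9 differences that passed changed sign under any. Leaving out arrays could not change their sign, because the arrays compared did not overlap. Of the other settings, only centring on medians and quantile normalization altered these 9 values. For APAP against control at 6 h the count was 3, with a range of 0 to 2 when each replicate number was left out in turn (0 without number 30 or 31) and 2 to 3 when a single array was. It was 4, with E2f7, under the replicate block, quantile normalization, the limit on dim genes and the trend and robust prior. For APAP against AMAP at 6 h it was 5, 0 with only the 6 arrays compared, 0 to 2 with a number left out and 1 to 3 with a single array left out. The block gave 5, and centring on medians, quantile normalization and the trend and robust prior gave 4, without Ccne2 (adjusted p = 0.057, 0.0526 and 0.0519). For APAP against control at 24 h it was 1, 0 with only the 6 arrays compared, 0 whichever number was left out, and 0 to 1 with a single array left out. For APAP against AMAP at 24 h it was 0, and 1 with quantile normalization (E2f7, 0.32, adjusted p = 0.0438). Apart from E2f7 at 6 h, the block changed no call of these genes. With only the 6 arrays compared, the genes past the test over the whole array were 229 in place of 498 for APAP against control at 6 h, 28 in place of 141 for APAP against AMAP at 6 h, 957 in place of 1860 for APAP against control at 24 h, and 314 in place of 928 for APAP against AMAP at 24 h, which became 1425 with arrays centred on their medians. Over the settings that keep all numbers, it ranged from 86 to 214 (136 as reported) for APAP against control at 2 h, 0 to 49 (36) for AMAP against control at 2 h, 5 to 200 (91) at 6 h and 90 to 345 (145) at 24 h. It ranged from 60 to 271 (141) for control at 6 h against 2 h, 3 to 34 (3) for 24 h against 6 h, 123 to 502 (227) for 24 h against 2 h, and 69 to 187 (71) for the APAP effect at 24 h minus 2 h; for the other effects between times it was at most 12. Fewer arrays leave fewer degrees of freedom in these fits; the cause of the other shifts was not tested.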
